A study of Homo sapiens with 6 samples.

Results

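Adrenomedullin and the proteins that form its receptor are described here in mouse xenografts of MDA-MB-231, a human cell line of triple-negative breast cancer. The mice were given epinephrine (Epi) or PBS. The 6 genes are the ligands ADM and ADM2, the receptor CALCRL and the receptor activity-modifying proteins RAMP1, RAMP2 and RAMP3. They were found by symbol among the probesets (sets of short probes) that the array's annotation assigns to exactly 1 gene. All 6 of 6 were measured, by 12 of the 44988 such probesets: 3 for ADM, 2 for ADM2, 4 for CALCRL and 1 for each RAMP. A gene was read from its probeset of highest mean level (6 arrays), here as for all 18132 genes, and the other probesets are given beside it. The group was chosen by the log2 difference of ADM between Epi and PBS tumors on these same arrays, so that difference is a description without a test.

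Epi tumors came from NOD/SCID mice, which lack functional T and B cells, that were 4 to 6 weeks old and received epinephrine under the skin at 2 mg per kg per day, with injections from 7 days before the tumor cells were given. PBS tumors came from mice of the same strain and age given an equal volume of PBS. MDA-MB-231 cells in Matrigel were placed under the skin of both flanks in both groups, cells were taken from the resulting tumors, and their RNA was read on 3 Affymetrix Human PrimeView arrays per group. All tumors derive from 1 cell line, the host is immunodeficient, and the sample titles call the 3 arrays of a group biological replicates, which the study describes as independent. Whether each came from a different mouse is not stated there, and p-values measure the spread between these arrays.

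Adrenomedullin is a secreted peptide that widens blood vessels, promotes the growth of new vessels and is made by many tumors, where low oxygen is a known inducer of its gene. CALCRL is a G protein-coupled receptor that needs a RAMP at its side. With RAMP2 or RAMP3 it binds adrenomedullin, and with RAMP1 it binds the related peptide CGRP. The activated receptor couples mainly to Gs and raises cAMP, as the β2-adrenergic receptor for epinephrine does, and in normal tissue it is best known from the endothelium of blood and lymph vessels.

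Values are log2 expression after RMA, which corrects for background, puts arrays that are normalized together on a common scale and combines the probes of each set. The replicate 1 arrays of both groups differed from the other 4 arrays. Their median log2 values over all probesets were 6.05 (Epi) and 5.98 (PBS) against 6.37 to 6.42 on the others, and their Pearson correlations with the others over all genes were 0.935 to 0.962, against 0.972 to 0.989 among those 4. Genes were compared with limma, a linear model per gene with shared variance information, and p-values were adjusted over all 18132 genes by the Benjamini-Hochberg method with a threshold of 0.05. Without a replicate block 0 genes (0%) passed, with 241 at an unadjusted p under 0.05. An unmoderated test without the block also passed 0 after adjustment, with 252 unadjusted. The study's methods list a test of this kind among several and assign none of them to the arrays. The study reports altered array genes by fold change and a Q value, and that list was not compared with these counts. With the replicate number as a block 122 genes (0.673%) passed, 64 higher (0.353%) and 58 lower (0.32%) in Epi tumors. The block and unblocked fits share the same mean differences, and the block fit is given wherever it changed a call.

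The promoter of ADM is shown because ADM was the member that differed most between the groups. The 250 bases before its start, from RefSeq on GRCh38.p14, lie at chr11:10304823-10305072 on the plus strand and are written 5′ to 3′, with the match to a searched motif in capitals.
ADM: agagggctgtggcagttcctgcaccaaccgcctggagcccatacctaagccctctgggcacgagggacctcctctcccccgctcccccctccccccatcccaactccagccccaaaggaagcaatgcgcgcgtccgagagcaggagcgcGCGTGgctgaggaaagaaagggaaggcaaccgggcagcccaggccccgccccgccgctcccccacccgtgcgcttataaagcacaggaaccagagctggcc
The motifs searched on both strands were ACGTG and GCGTG, core letters of the hypoxia response element, TGACG, the short form of the cAMP response element, TGANTCA, the AP-1 site, and CACGTG, the E-box, which overlaps ACGTG. In this window GCGTG was found 1 time on the plus strand, at position -101 from the start, and the other letters were not found. GCGTG is in 32.2% of 35116 promoters of the same length, ACGTG in 18.5%, TGACG in 21.2%, TGANTCA in 6.57% and CACGTG in 6.34%. The windows of ADM2 and RAMP3 also held GCGTG 1 time each, that of CALCRL held none of the 5 motifs, and RAMP1 and RAMP2 were not matched. A match describes these letters and is not a binding site shown by these data.

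ADM, the ligand, was higher in every Epi tumor than in every PBS tumor. On its brightest probeset the log2 values were 9.82, 10.48 and 10.09 in Epi replicates 1 to 3, against 8.28, 7.54 and 7.86 in PBS replicates 1 to 3. The lowest Epi array thus lay above the highest PBS array. ADM averaged 10.13 ± 0.33 in Epi tumors and 7.89 ± 0.37 in PBS tumors (SD, n = 3 each), a log2 difference of 2.24 or 4.71-fold. Within replicate pairs 1 to 3 the differences were 1.54, 2.94 and 2.23, that is 2.91-fold, 7.66-fold and 4.69-fold. ADM ranked 7 of 18132 genes by its log2 difference. It was higher in 3 of 3 pairs, as were 5.71% of all genes. It was the 1 of the 6 members that passed the adjusted threshold in the fit with the block, where 0.353% of all genes were called higher, and the 1 member whose groups did not overlap, as 0.982% of all genes had every Epi array above every PBS array. As ADM was chosen for this contrast, nothing is read from these counts. In a tumor sample, more cells that express a gene and more RNA per cell cannot be told apart.

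**Figure D1:**
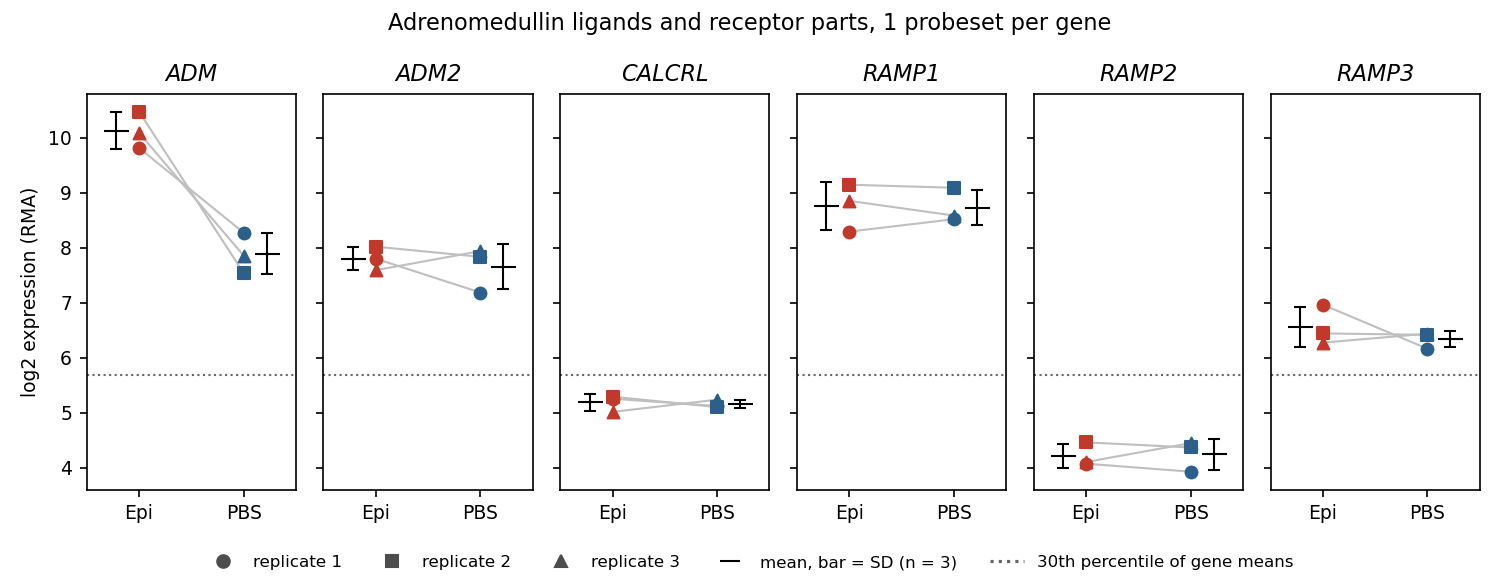
Log2 expression of the 6 genes on each array, with Epi tumors (red) left of PBS tumors (blue), 1 probeset per gene, marker shapes and grey lines for the replicate number, black marks for the mean ± SD (n = 3), and a dotted line at the 30th percentile of all gene means (5.69). ADM stands at 9.82 to 10.48 in Epi tumors and 7.54 to 8.28 in PBS tumors, and the groups overlap in the other 5 genes, of which CALCRL and RAMP2 lie under the dotted line on every array.

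The 3 probesets of ADM gave the same direction but not the same size. The second probeset read 9.82, 10.42 and 9.97 in Epi tumors, against 8.40, 7.54 and 7.92 in PBS tumors, a log2 difference of 2.12. Its values followed those of the brightest with a Pearson correlation of 0.999 over the 6 arrays. The third probeset read 7.39, 8.27 and 7.67 in Epi tumors, against 6.24, 7.21 and 6.92 in PBS tumors, a log2 difference of 0.98 or 1.98-fold. The groups did not overlap on it either, and its pair differences were 1.15, 1.05 and 0.75. In pairs 1 to 3 the difference on the brightest probeset was larger than on the third by 0.39, 1.89 and 1.48. On the third probeset both replicate 1 arrays read lowest within their group, whereas on the brightest the PBS replicate 1 array read highest within its group. With the mean of the 3 probesets the log2 difference of ADM was 1.78. The brightest probeset has the suffix x, which marks a set in which some probes may match other sequences, and the other ADM probesets have the suffix a, which marks a set whose probes match transcripts of 1 gene.

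**Figure D2:**
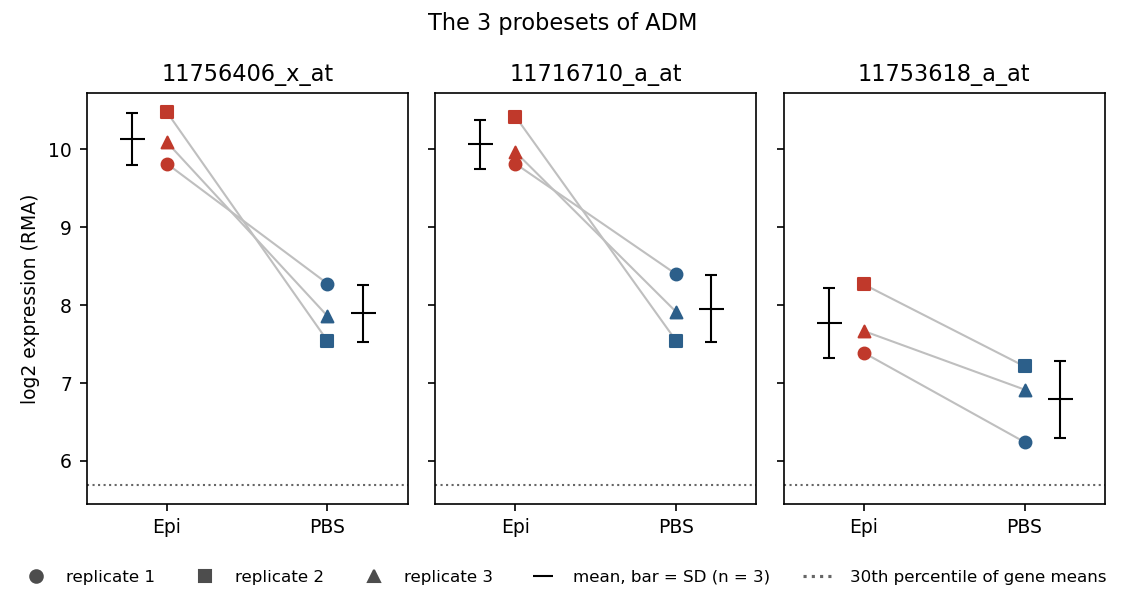
Log2 expression on the 3 probesets of ADM, with Epi tumors (red) left of PBS tumors (blue), grey lines joining arrays of the same replicate number, black marks for the mean ± SD (n = 3) and a dotted line at the 30th percentile of gene means. Every Epi array lies above every PBS array in all 3 panels, and the difference is 2.24, 2.12 and 0.98 from left to right.

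Leaving out 1 array at a time kept the log2 difference of ADM between 2.06, without PBS replicate 2, and 2.43, without PBS replicate 1. With every Epi array above every PBS array, its sign could not change in these fits.

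ADM2 encodes intermedin, a related peptide that acts on the same receptors. Its log2 values were 7.80, 8.02 and 7.59 in Epi tumors, against 7.19, 7.84 and 7.94 in PBS tumors, and the groups overlapped. The log2 difference was 0.15 (95% interval from -0.49 to 0.79 in limma without the block, adjusted p = 0.9999). The pair differences were 0.62, 0.18 and -0.35, so the sign differed between pairs. The second probeset of ADM2 had a difference of -0.02, with pair differences of 0.57, -0.41 and -0.23. The difference of ADM2 was -0.0828 without PBS replicate 1 and 0.15 without Epi replicate 1, so its sign rested on the PBS replicate 1 array.

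CALCRL, the receptor itself, was dim. Its brightest probeset read 5.26, 5.29 and 5.02 in Epi tumors, against 5.13, 5.11 and 5.24 in PBS tumors. All 4 probesets of CALCRL had means under 5.69, the 30th percentile of all gene means. The arrays carry probes for human transcripts, so the receptor of mouse vessels in the tumor is not what they were designed to read. The log2 difference was 0.03 (95% interval from -0.47 to 0.54 without the block, adjusted p = 0.9999 in limma), and the other 3 probesets had differences from -0.13 to 0.16. The dimmest of them read 2.83 to 3.06 in Epi tumors and 2.98 to 3.14 in PBS tumors.

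RAMP1, the partner that makes CALCRL a CGRP receptor, read 8.30, 9.15 and 8.85 in Epi tumors, against 8.52, 9.09 and 8.59 in PBS tumors. The difference of 0.03 had a 95% interval from -0.65 to 0.72 without the block and from -0.40 to 0.47 with it (adjusted p = 0.9999 and 0.9998 in limma). Changes of up to 1.64-fold higher or to 0.636 of the PBS level are thus inside the unblocked interval. Its pair differences were -0.23, 0.06 and 0.27.

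RAMP2, which makes CALCRL the principal adrenomedullin receptor, read 4.08, 4.46 and 4.11 in Epi tumors, against 3.93, 4.37 and 4.45 in PBS tumors, all under the 30th percentile. Its difference was -0.03 (95% interval from -0.62 to 0.55 without the block, adjusted p = 0.9999 in limma). RAMP3, the partner of the other adrenomedullin receptor and a protein that also steers receptor recycling, read 6.97, 6.44 and 6.28 in Epi tumors, against 6.17, 6.42 and 6.44 in PBS tumors. Its difference was 0.22 (95% interval from -0.38 to 0.82 without the block, adjusted p = 0.9999 in limma). Epi replicate 1 was its highest array, with pair differences of 0.80, 0.03 and -0.16. Without both replicate 1 arrays the difference of RAMP3 was -0.07. None of the 4 receptor parts passed in limma with or without the block, and at an unadjusted p the lowest of the 4 was 0.340, for RAMP3 with the block.

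**Figure D3:**
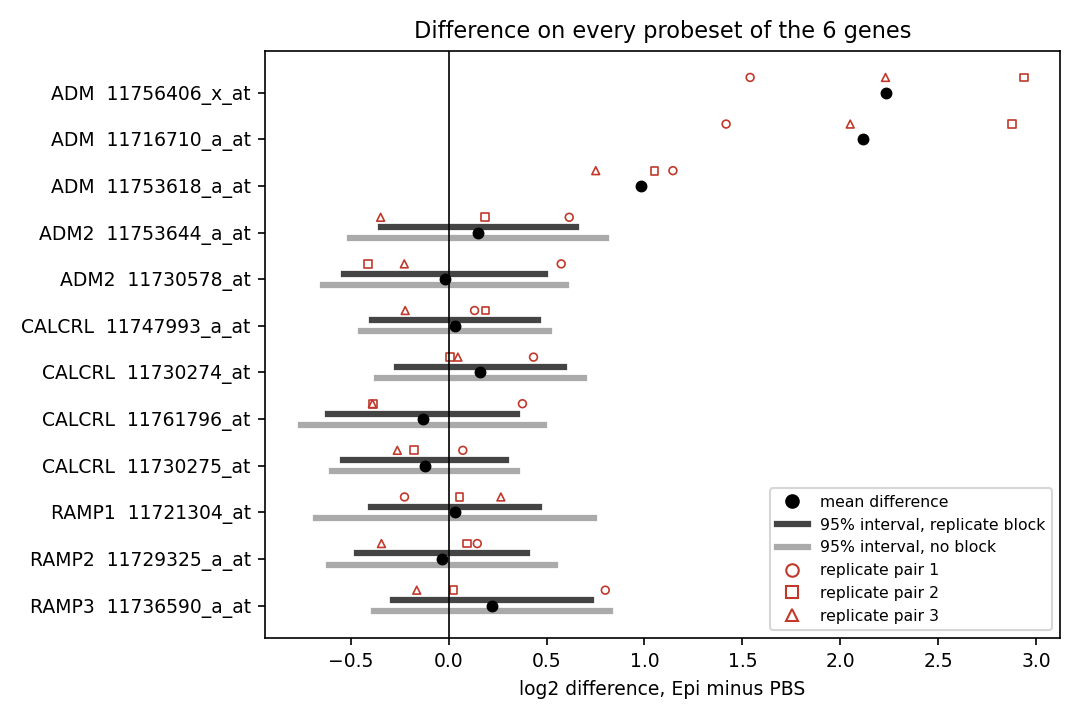
Log2 difference, Epi minus PBS, on each of the 12 probesets: black points are means, red open symbols the 3 replicate pairs, and bars 95% intervals from limma fitted over all 44988 probesets with (dark) and without (light) the replicate block, left out for ADM, which was chosen for its difference. The 3 ADM probesets lie at 0.98 to 2.24, and all intervals of the other 9 include 0.

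Related genes were read from lists drawn up with earlier results of these arrays known, so their counts are descriptions. Over all genes the median log2 difference was -0.02 and 45.7% lay above 0. Of 14 genes of the calcitonin family and of adrenomedullin handling, 12 were measured and 0 passed in limma, whether or not the block was used (median 0.08, range -0.30 to 0.25). The other genes of that list were not analysed here. PAM, the enzyme that amidates and so activates adrenomedullin, read 8.96, 9.79 and 9.83 in Epi tumors, against 9.45, 9.87 and 10.17 in PBS tumors, lower in each pair but with overlapping groups (difference -0.30, adjusted p = 0.9998 in limma with the block). The difference of PAM was -0.02 without Epi replicate 1 and -0.49 without PBS replicate 1. FURIN, a protease that cuts many propeptides, had a difference of -0.24, which was 0.05 without Epi replicate 1 and 0.11 without PBS replicate 2. ADM5, a further gene of the adrenomedullin family, read 7.32, 6.75 and 6.50 in Epi tumors, against 6.88, 6.54 and 6.80 in PBS tumors (difference 0.11). MME, the cell surface peptidase neprilysin that degrades adrenomedullin, had a difference of 0.05. CALCA, IAPP, the receptor CALCR and ACKR3, a receptor that takes up adrenomedullin, were under the 30th percentile.

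Class B receptors that can pair with RAMPs likewise gave no call among 11 measured genes (median 0.03). PTH1R, the parathyroid hormone receptor, had a difference of -0.58 (adjusted p = 0.542 in limma with the block). Among 20 measured genes of Gs coupling and receptor trafficking none passed (median -0.03). GRK5, a kinase that phosphorylates activated receptors, was nearest, with 5.40, 6.93 and 7.34 in Epi tumors, against 6.40, 8.34 and 7.88 in PBS tumors. Its difference of -0.98 (standard error 0.22, adjusted p = 0.0526 in limma with the block) missed the threshold, and its 4 other probesets ranged from -0.34 to 0.22. GRK5 passed in 1 of 7 other fits that kept the block or left out the replicate 1 arrays, that with the block and without replicate 3 (-1.20, adjusted p = 0.0183 in limma). Its difference was -0.40 without Epi replicate 1, -1.55 without PBS replicate 1, -0.58 without PBS replicate 2 and -0.26 with the mean of probesets.

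Among other peptides and growth factors that act on vessels, no gene passed with or without the block. Of 18 measured vasoactive peptide genes the median was 0.01. EDN1, which encodes the vasoconstrictor endothelin 1, read 6.96, 7.80 and 6.82 in Epi tumors, against 6.81, 5.97 and 6.74 in PBS tumors, so the groups did not overlap but the lowest Epi and highest PBS values all but touched (difference 0.68, adjusted p = 0.738 in limma with the block). APLN, the gene of the vasodilator apelin, had a difference of -0.33. Of 17 measured angiogenic ligands the median was 0.03. VEGFA, the main growth factor of endothelial cells, read 8.45, 9.34 and 9.37 in Epi tumors, against 9.14, 10.44 and 9.99 in PBS tumors. It was lower in each pair (difference -0.80, standard error 0.21, adjusted p = 0.120 in limma with the block), and its 10 probesets ranged from -0.88 to 0.14. Of the 9 other probesets of VEGFA 6 were higher in pair 1, and with the mean of probesets the difference was -0.35. It was -0.50 without Epi replicate 1 and -0.51 without PBS replicate 2. VEGFC, a growth factor of lymph vessels, was also lower in each pair (difference -0.63, adjusted p = 0.418). PDGFA, a growth factor for pericytes and other mesenchymal cells, had a difference of 0.89 (adjusted p = 0.108 in limma with the block). With the mean of its probesets the difference of PDGFA was 0.41. With 1 array left out it lay between 0.62, without Epi replicate 2, and 1.31, without Epi replicate 1. Of the 17 angiogenic ligands 6 (35.3%) were higher in 3 of 3 pairs, against 5.71% of all genes. They were PDGFA, PGF, ANGPTL4, ANGPT1, ANGPT2 and FGF2, of which the last 3 lay under the 30th percentile of gene means. Their smallest pair differences were 0.03, in pair 3 of FGF2, and 0.04, in pair 2 of ANGPT2. VEGFA, VEGFB and VEGFC, all above that percentile, were the 3 (17.6%) that were lower in 3 of 3, against 13.2%.

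Genes known to be induced at low oxygen, as ADM is, mostly lay on the other side of 0 from ADM. Of 30 measured genes of the hypoxia response (CA9 and SLC2A3 were not analysed here), 24 had a difference below 0 and 6 above 0, with a median of -0.23. 2 fell with the block (6.67%, against 0.32% of all genes), none rose and 28 did not pass, and without the block none passed. NDRG1, a stress-responsive gene, read 7.47, 8.26 and 8.17 in Epi tumors, against 8.10, 10.24 and 10.20 in PBS tumors (difference -1.55, standard error 0.26, adjusted p = 0.00785 in limma with the block). It was lower in 3 of 3 pairs, but 4 of its 5 other probesets were higher in pair 1, and it passed in 5 of 7 other fits that kept the block or left out the replicate 1 arrays. VLDLR, a lipoprotein receptor, read 4.06, 6.56 and 6.60 in Epi tumors, against 5.64, 7.41 and 7.52 in PBS tumors (difference -1.11, standard error 0.21, adjusted p = 0.0210 in limma with the block). It passed in 3 of those 7 fits, and its difference was -0.27 without Epi replicate 1 and -1.72 without PBS replicate 1. VEGFA, named above, is also on this list. BNIP3, a mitophagy gene, had a difference of -0.89 and missed the threshold (adjusted p = 0.0548 in limma with the block). Its other probeset had -0.02, with the mean of both the difference was -0.46, and BNIP3 passed in 0 of the same 7 other fits. DDIT4, an inhibitor of mTORC1 signaling, had a difference of 0.90 (adjusted p = 0.169 in limma with the block). DDIT4 passed with the block without replicate 1 (1.31, adjusted p = 0.0234 in limma), and with 1 array left out its difference lay between 0.38, without Epi replicate 2, and 1.71, without Epi replicate 1. Of the 30 genes 16 (53.3%) were lower in 3 of 3 pairs, against 13.2% of all genes. Of the 8 marker genes of MDA-MB-231 cells 4 (50%) were also lower in 3 of 3 pairs, with a median difference of -0.23. The median of the hypoxia response list was -0.45, -0.16 and -0.28 in pairs 1 to 3. It was 0.010 without Epi replicate 1, -0.58 without PBS replicate 1 and -0.23 without both, so it moved with a replicate 1 array kept on 1 side only.

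**Figure D4:**
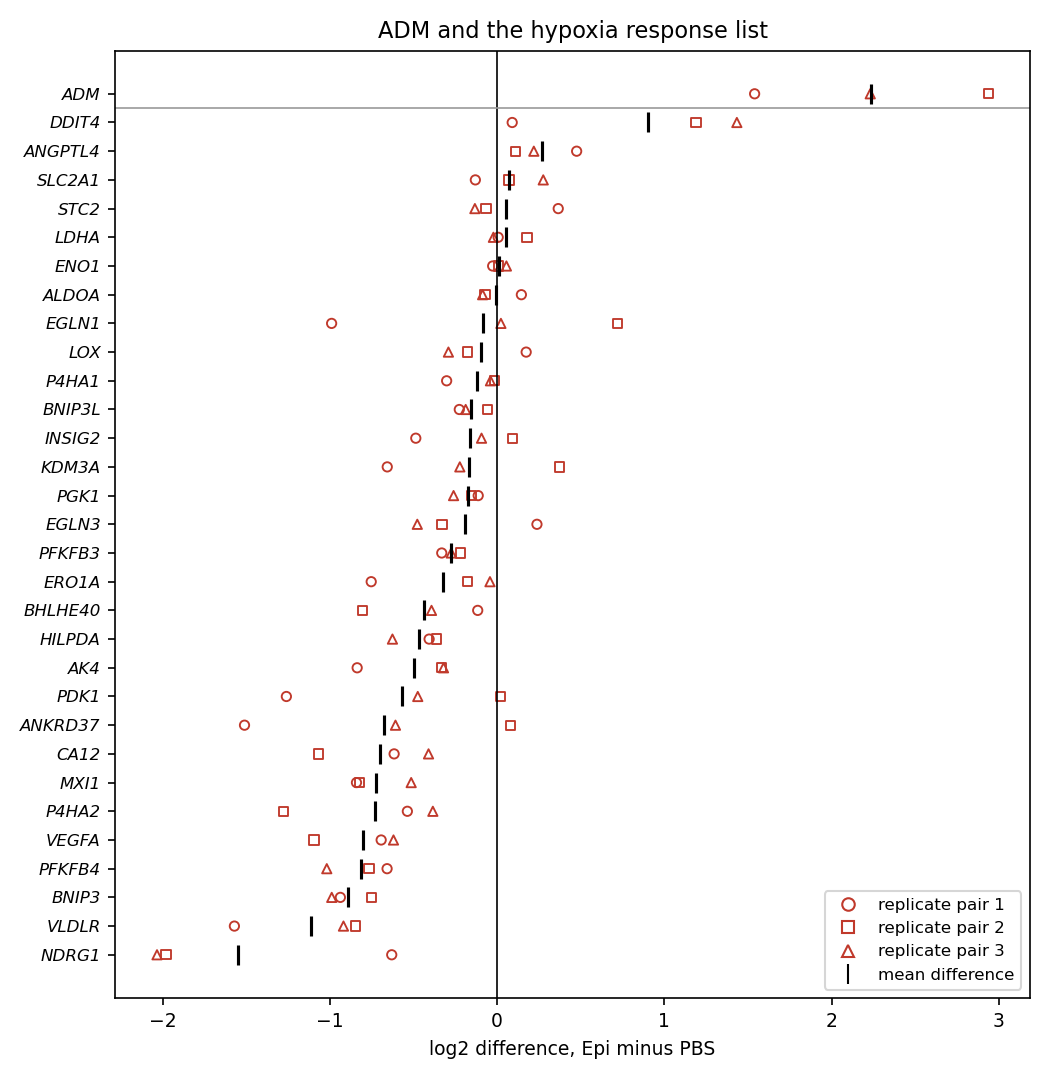
Log2 difference, Epi minus PBS, of ADM (top) and the 30 measured hypoxia response genes in order of their mean difference: red open symbols are the 3 replicate pairs and black marks the means. ADM lies at 1.54 to 2.94, and 24 of the 30 list genes have means below 0, down to -1.55 for NDRG1.

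Of the 7 measured hypoxia regulators, EPAS1 rose with the block (14.3%, against 0.353% of all genes called higher) and the other 6 did not pass. EPAS1 encodes HIF-2α, an oxygen-regulated transcription factor. It read 9.31, 10.43 and 11.04 in Epi tumors, against 8.04, 9.59 and 9.35 in PBS tumors. The difference was 1.27 (standard error 0.22, adjusted p = 0.00881 in limma with the block), higher in 3 of 3 pairs, while the groups overlapped. Its other probeset had 0.30, with the mean of both the difference was 0.78 (adjusted p = 0.113 with the block), and EPAS1 passed in 1 of the same 7 other fits. Its difference was 1.74 without Epi replicate 1 and 0.79 without PBS replicate 1. HIF1A, the gene of HIF-1α, had a difference of -0.03 (adjusted p = 0.9998 in limma with the block).

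Markers of the labelled cells were bright. VIM, an intermediate filament gene of mesenchymal-like cells, read 13.52 to 14.13 in Epi tumors and 13.95 to 14.41 in PBS tumors, and all 8 markers of MDA-MB-231 cells were above the 30th percentile. None of the 8 passed with or without the block, and 5 had differences below 0. In LGALS1, the gene of galectin 1, every Epi array lay below every PBS array, as in 2.22% of all genes (difference -0.18). Of 7 luminal or hormone receptor genes PGR, CDH1 and EPCAM were under the 30th percentile. ESR1, FOXA1, GATA3 and ERBB2 were above it, with means over the 6 arrays from 7.09 for ESR1 to 8.48 for ERBB2. As ESR1 lies above it in a triple-negative line, a level above the 30th percentile does not by itself show that a gene is expressed. None of the 7 luminal or hormone receptor genes passed, and their median difference was -0.17. Of the 7, 3 (42.9%) were lower in 3 of 3 pairs, against 13.2% of all genes. In 1 of them, GATA3, every Epi array lay below every PBS array, as in 2.22% of all genes. The arrays carry probes for human transcripts, so vessels and other host cells of the mouse are not what they were designed to read. The lists of endothelium, pericytes and smooth muscle, fibroblasts and macrophages thus do not measure the amount of these cells. Of 15 endothelial genes 9 were above the 30th percentile and TEK, FLT1, CLDN5, EMCN, ERG and PLVAP were under it. The summed linear level of the list was 1249 to 1598 in Epi tumors and 1077 to 2055 in PBS tumors, and none of its genes passed with or without the block. In 1 endothelial gene, the junction gene ESAM, every Epi array lay below every PBS array, as in 2.22% of all genes, with 7.51, 7.43 and 7.43 in Epi tumors, against 7.56, 8.72 and 8.22 in PBS tumors (difference -0.71, adjusted p = 0.382 in limma with the block). With the mean of its probesets the difference of ESAM was -0.37. With 1 array left out it lay between -1.01, without PBS replicate 1, and -0.43, without PBS replicate 2. PECAM1, an adhesion gene of endothelium and platelets, had a difference of 0.44 and KDR, the main VEGF receptor, one of -0.11 (adjusted p = 0.924 and 0.9998). Leaving out 1 array turned both signs, to -0.13 for PECAM1 without PBS replicate 1 and to 0.13 for KDR without Epi replicate 1. The endothelial list had a median difference of -0.05, and its part in the values of ADM was not tested. None of the genes of pericytes and smooth muscle (10), fibroblasts (10) and macrophages (11) passed either, with medians of -0.03, 0.03 and -0.05. Of the fibroblast genes 8 were under the 30th percentile, COL1A2, COL3A1, DCN and LUM among them.

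The 6 members did not share a pattern. Over the 6 arrays the Pearson correlation of ADM with the other 5 lay between -0.11, with RAMP2, and 0.28, with RAMP3, and the highest correlation within the group was 0.876, between ADM2 and RAMP2. These arrays share the replicate 1 difference, so the correlations are descriptions. Among 7682 genes whose values spanned at least 1 log2 unit, the 5 most like ADM over the 6 arrays were AKR1C2, a steroid and carbonyl reductase (r = 0.980), IL7R, the interleukin 7 receptor (r = 0.972), KLRC1, a lectin-like receptor known from natural killer cells (r = 0.970), the histone gene H2AC6 (r = 0.957) and SNAI2, which encodes SLUG (r = 0.953). AKR1C2 read 8.93, 10.00 and 9.72 in Epi tumors, against 7.16, 7.06 and 6.93 in PBS tumors. KLRC1 read 6.20, 6.60 and 6.42 in Epi tumors, against 5.58, 5.62 and 5.49 in PBS tumors. All 5 had every Epi array above every PBS array, which a likeness to ADM favours. Once the mean of each pair was subtracted, TXNRD1, GPRC5C and ARNT2 had a correlation of 1.000 with ADM at 3 decimals, and STAT4 and DDB2 one of 0.999, but this leaves 3 free values. ARNT2, a dimerization partner of HIF proteins and one of the hypoxia regulators above, had a difference of 0.52 (adjusted p = 0.617 in limma with the block). With the mean of its probesets the difference of ARNT2 was 0.17. With 1 array left out it lay between 0.15, without PBS replicate 1, and 0.97, without Epi replicate 1. In each of these 5 genes pair 2 had the largest difference and pair 1 the smallest, as in ADM. Their choice by this correlation fixed that order, so nothing is read from it.

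For the other members above the 30th percentile, the genes most like them had small differences between the groups, which were not tested further. ALKBH6, CCDC159 and BTN2A3P were most like ADM2 (r = 0.989 to 0.992), with differences of 0.16 to 0.24. UBAC2, ZNF480 and SOCS3 were most like RAMP1 (r = 0.988 to 0.994), with differences of -0.01 to 0.01. TMEM150C, ETV7 and SPANXN3 were most like RAMP3 (r = 0.933 to 0.964), with differences of 0.17 to 0.30.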

How the data were processed

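RNA of 6 tumors was read on Affymetrix Human PrimeView arrays. Deposited values are log2 expression per probeset, and per the submitters' processing notes RMA in Affymetrix Expression Console was used (versions not stated). No source used here says which arrays were normalized jointly. The scanner files were not used here. Of 49395 probesets, 102 were controls, 44988 had 1 gene in GEO's platform annotation, 1832 several and 2473 none listed. Symbols were looked up in RefSeq (GRCh38.p14), which changed 0. The probeset with the highest mean stood for its gene.

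The difference Epi minus PBS was fitted per gene by limma 3.58.1 (R 4.3.3, empirical Bayes) without a block. Arrays give no read depth, and their number limits the precision. An unmoderated t-test was an alternative, as were a variance trend, quantile normalization and median centring. Others were a filter at the 30th percentile (5.69), the mean of probesets, the replicate block alone and combined, and leaving out arrays. Deviations from the group means of arrays with the same replicate number correlated at 0.630, 0.627 and 0.453 for replicates 1 to 3, so the numbers from the sample titles were used as pairs beside the unblocked fit. Arrays of different number also reached 0.523, and no source says what a number stands for. The sample descriptions give an unexplained code, 20 in Epi replicate 2 and 10 in the other Epi arrays.

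Named genes were the members, the genes of each list that passed, and up to 4 of the largest differences above the 30th percentile, of which a selection is printed, and MME, HIF1A and genes at the extremes of likeness to a member were chosen after their values were seen. The members and lists were chosen with earlier results of these data known. On simulated arrays with 18132 genes, the fit with the block recovered 82 of 100 genes with a true log2 change of 1 and 100 of 100 with a change of 2, with 5 false calls, and the fit without it 0 and 50, with 0 false calls. The promoter windows come from a table of RefSeq promoters in which 4 of the 6 members were matched.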

Additional observations from a re-analysis of the deposited data

How the results depend on the processing

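The number of genes past the adjusted threshold was 0 without the block under every other setting on all 6 arrays and with each array left out in turn (0 to 0). It was 16 without both replicate 1 arrays and no block, and with the replicate block it was 122, 9 with quantile normalization, 53 with median centring, 81 with the mean of probesets, and 162, 66 and 129 without replicate 1, 2 and 3. ADM kept its direction in every fit. With every Epi array above every PBS array on its 3 probesets, leaving out arrays or averaging probesets could not turn it. Its log2 difference was 1.78 with the mean of probesets, with or without the block, and 2.06 to 2.43 with 1 array left out. The other 5 members passed in no fit. ADM2 changed sign to -0.0814 without both replicate 1 arrays, with or without the block, and ranged from -0.0828 to 0.29 with 1 array left out. CALCRL changed sign to -0.015 with the mean of probesets and to -0.017 without both replicate 1 arrays, each with or without the block, and to -0.045 with the block without replicate 2. With 1 array left out it ranged from -0.0191 to 0.119. RAMP1 was -0.085 with the block without replicate 3 and -0.16 to 0.27 with 1 array left out, RAMP2 was 0.12 and -0.195 to 0.0651 in the same settings, and RAMP3 was -0.0689 without both replicate 1 arrays, with or without the block, and 0.02 to 0.36 with 1 array left out. The cause of these sign changes was not tested. Quantile normalization and median centring moved the median of all genes by 0.02 and -0.01. The replicate block moved no mean difference and, among the members, changed the call of ADM alone. As ADM was chosen for its difference on these arrays, nothing is read from that call.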
